A study of Homo sapiens with 6 samples.

Results

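Albumin (ALB), alpha-fetoprotein (AFP), transthyretin (TTR), alpha-2-HS-glycoprotein or fetuin-A (AHSG), orosomucoid 2 (ORM2) and inter-alpha-trypsin inhibitor heavy chain 4 (ITIH4) are plasma proteins that hepatocytes make and secrete. These 6 genes were chosen by name from the 1998 genes that the authors' deposited table lists as changed. The choice asked how a fetal plasma protein compares with adult ones. The table comes from HepG2 cells, a human liver cancer line that still makes many plasma proteins. The cells received a control siRNA (siCon, 3 libraries) or an siRNA against the long noncoding RNA H19 (siH19, 3 libraries), and total RNA was taken 48 h later. All 6 libraries came from the same line without any other labelled treatment. The table gives 1 combined value per group and no value per library, so the overlap of the groups could not be examined. The RNA of H19 itself was not analysed here, and siH19 is therefore the submitters' label and not a measured knockdown.

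ALB and AFP are neighbouring genes of the same family. AFP is a major plasma protein of the fetus, and ALB is the main plasma protein of the adult. AFP is silenced in the adult liver and is made again in many liver cancers. TTR carries thyroid hormone and, with retinol-binding protein, vitamin A. AHSG binds mineral in plasma, ORM2 binds drugs and other small molecules, and ITIH4 is a relative of the heavy chains that bind hyaluronan. In inflammation the liver makes less ALB, TTR and AHSG (negative acute-phase proteins) and more ORM2 and ITIH4 (positive acute-phase proteins).

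The promoters of ALB and AFP are shown because the comparison of the fetal with the adult protein turns on these 2 genes. RefSeq's promoter table (GRCh38.p14) held 4 of the 6 genes, namely ALB, AFP, AHSG and ITIH4. The 250 bases before the start of ALB are chr4:73404037-73404286 and those of AFP are chr4:73435971-73436220, both on the + strand and printed 5′ to 3′. Capitals mark GTTAAT, the repeated arm of the palindromic site of the liver factor HNF1, searched on both strands.
ALB: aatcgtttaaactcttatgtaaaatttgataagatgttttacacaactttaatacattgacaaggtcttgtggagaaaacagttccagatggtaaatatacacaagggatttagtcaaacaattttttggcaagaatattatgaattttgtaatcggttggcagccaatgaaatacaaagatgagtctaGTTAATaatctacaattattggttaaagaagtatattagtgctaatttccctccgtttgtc
AFP: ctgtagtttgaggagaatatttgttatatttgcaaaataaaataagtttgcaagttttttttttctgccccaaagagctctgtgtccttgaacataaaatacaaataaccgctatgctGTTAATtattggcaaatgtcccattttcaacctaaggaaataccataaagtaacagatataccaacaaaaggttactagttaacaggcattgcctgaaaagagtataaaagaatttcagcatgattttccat

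GTTAAT stood once in each, 61 bases before the start in ALB and 132 bases before it in AFP, where positions are counted from the first base of the match. It was found in 6.23% of 35116 promoter windows of the same length. AHSG and ITIH4 had no match in their windows. The string TATAAA, a form of the TATA box, lay 29 bases before the start of AFP. That exact string was not found in the window of ALB, and it was found in 10.7% of all windows. Other forms of a TATA box were not searched, so ALB is not shown to lack one. CCAAT was found 2 times in ALB and 1 time in AFP, and in 32.0% of all windows. Only exact strings were searched, so the windows may hold other forms of these sites, HNF1 sites included. These matches describe letters only, and no binding was measured.

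All 6 genes had lower RNA in siH19 than in siCon. The size of the fall differed: TTR, ITIH4 and ALB lost 45.7%, 39.3% and 37.1% of their control level, AHSG 29.8%, AFP 21.5% and ORM2 14.1%. Being listed as changed was part of the choice, so the calls themselves are no finding. Of all listed genes, 55.3% were lower. The median log2 fold change over all listed genes was -0.27 and over the 6 it was -0.59. At least a 1.5-fold fall was seen in 3 of the 6, ALB, TTR and ITIH4, against 15.6% of all listed genes. For ITIH4 this says little, because the smallest change of other listed genes at its level was 0.55 on the log2 scale. That is already close to 1.5-fold, so being listed nearly fixed its place in this count. Highly expressed genes leaned lower in general: of 38 other listed genes with a mean normalized count of at least 10000, 76.3% were lower, with a median of -0.29. Fewer cells of a kind and less RNA per cell cannot be told apart in such bulk samples.

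**Figure D1:**
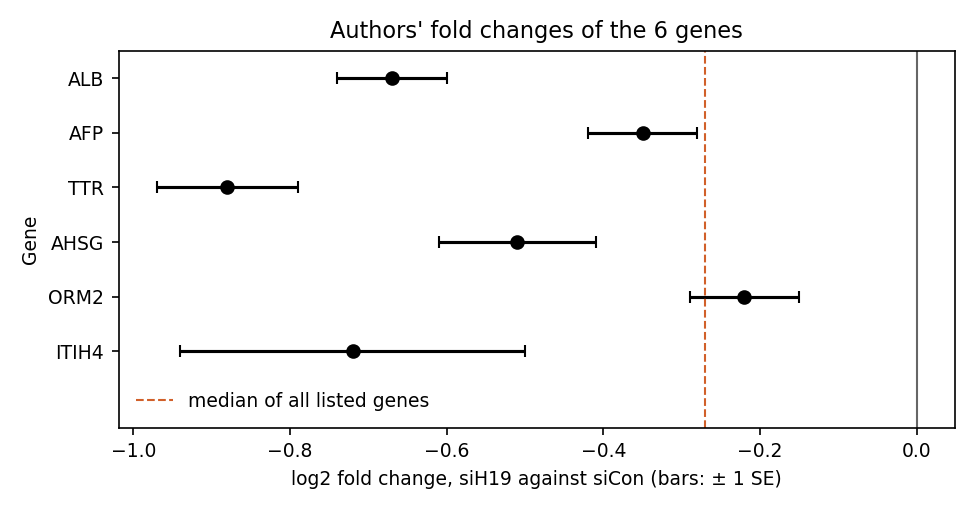
Log2 fold change of each gene in siH19 against siCon, as deposited by the authors, with bars of 1 standard error (SE); the dashed line is the median of all 1998 listed genes, -0.27. ORM2 at -0.22 is the only 1 of the 6 to the right of that line, and TTR at -0.88 is the farthest to the left.

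ALB was the most abundant of the 6 in both groups. The authors' deposited table gave it a log2 normalized count of 15.66 in siCon and 15 in siH19, which is 51776 and 32768 normalized counts. The authors' fold change was -0.67 ± 0.07 (SE), a 1.59-fold fall, with an adjusted p written as 0, below the precision of the table. By normalized count, not scaled by length, ALB stood in place 4 among the listed genes in siCon and in place 6 in siH19. Of listed genes, 9.81% had a lower fold change.

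AFP, the fetal counterpart, was lower by less. The authors' deposited table gave 15.28 in siCon and 14.93 in siH19 on the log2 scale, which is 39787 and 31216 normalized counts. Its fold change in the authors' deposited table was -0.35 ± 0.07 (SE), a 1.27-fold fall, with an adjusted p of 1.4e-05. AFP held place 7 among listed genes in both groups by normalized count, again not scaled by length.

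The gap in RNA between the adult and the fetal gene therefore narrowed. ALB had 1.30 times as many normalized counts as AFP in siCon and 1.05 times as many in siH19. The coding regions of both are 1827 bases long, so scaling by coding length leaves these ratios as they are. By the longer transcript of AFP (2484 bases, against 2263 for ALB) they became 1.43 and 1.15. The fold changes differed by -0.32 ± 0.10 (ALB minus AFP, both SEs combined as if the genes were independent), which is 3.23 times the combined SE. Reads have 76 cycles, and 0 of the 2188 stretches of 76 bases in the ALB transcript occur unchanged in that of AFP. Their aligned coding sequences were 61.4% identical.

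**Figure D2:**
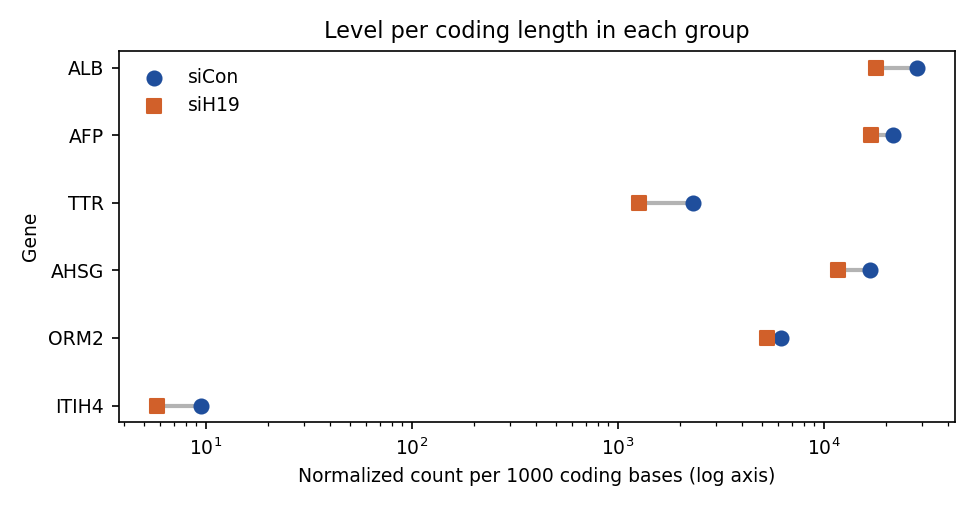
Normalized count per 1000 coding bases (log axis) of each gene, with circles for siCon and squares for siH19, each 1 combined value per group. ALB and AFP stand close together in siH19, at 17935 and 17086, and farther apart in siCon, at 28339 and 21777.

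Per coding length the order of levels was the same in both groups. In siCon it ran from ALB (28339 normalized counts per 1000 coding bases) over AFP (21777), AHSG (16742), ORM2 (6207) and TTR (2322) to ITIH4 (9.51). In siH19 the levels on the same scale were 17935 for ALB, 17086 for AFP, 11757 for AHSG, 5329 for ORM2, 1270 for TTR and 5.77 for ITIH4. Per transcript length the order was again the same in both groups. With no spread between libraries given for a level, it cannot be said whether ALB and AFP differ in siH19. ALB, AFP and AHSG together made up most of the summed normalized counts of the 6 genes: 45.1%, 34.7% and 16.1% in siCon. These shares and the sums below are not scaled by length, so longer transcripts weigh more. In siH19 the share of ALB was 40.6% and that of AFP 38.7%. The sum of the 6 was 114789 in siCon and 80718 in siH19, and ALB alone accounted for 55.8% of that difference.

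TTR had the largest fall of the 6. The authors' deposited table gave 10 in siCon and 9.13 in siH19 on the log2 scale, or 1024 and 560.3 normalized counts. The fold change in the authors' deposited table was -0.88 ± 0.09 (SE), a 1.84-fold fall with an adjusted p written as 0, and only 3.90% of all listed genes had a lower one. Its partner in plasma, the retinol carrier RBP4, was at -0.67 ± 0.07 in the authors' deposited table, with 3373 normalized counts in siCon and 2135 in siH19.

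AHSG was in the middle of the 6. Its log2 normalized counts in the authors' deposited table were 14.17 in siCon and 13.66 in siH19, or 18433 and 12944 normalized counts. The authors' deposited table gave a fold change of -0.51 ± 0.10 (SE), a 1.42-fold fall, with an adjusted p of 2.4e-05. An annotated antisense gene overlaps AHSG, and whether counting used the strand was not given in the sources used here. Its reads could be included.

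ORM2 changed least. The authors' deposited table gave 11.87 in siCon and 11.65 in siH19 on the log2 scale, or 3743 and 3214 normalized counts. The fold change in the authors' deposited table was -0.22 ± 0.07 (SE), with an adjusted p of 0.0206. Among listed genes with a mean count within 2-fold of that of ORM2, the smallest listed change was 0.19, so ORM2 lies near the edge of what could be listed at its level. ORM2 also has a near copy, ORM1, and 41.6% of the stretches of 76 bases in its transcript occur unchanged in that of ORM1. The coding sequences of both are 94.9% identical, with 31 mismatches and an unbroken shared run of 206 bases. How reads shared by such copies were assigned was not given in the sources used here. This leaves the value of ORM2 uncertain. The stretch of 80 coding bases with the most differences, bases 324 to 403 of each coding sequence in GENCODE release 29 (GRCh38), shows where the genes can be told apart, and capitals mark the 17 bases that differ.
ORM2: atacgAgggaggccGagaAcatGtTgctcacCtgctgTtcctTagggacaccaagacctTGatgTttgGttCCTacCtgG
ORM1: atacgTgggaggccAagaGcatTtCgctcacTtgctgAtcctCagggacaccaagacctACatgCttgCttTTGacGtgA

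ITIH4 was barely expressed. Its log2 normalized counts in the authors' deposited table were 4.73 in siCon and 4.01 in siH19, or 26.5 and 16.1 normalized counts, and only 30 listed genes had a lower mean. The authors' deposited table gave -0.72 ± 0.22 (SE), a 1.65-fold fall with an adjusted p of 0.00988. That SE is the largest value in the table, shared by 46 genes, and is below 0.26, the error expected from counting alone with 3 libraries in each group if the normalized counts are taken as reads per library, which the unknown depth does not settle. At this level the smallest listed change of other genes within 2-fold in mean count was 0.55, and no change as small as that of AFP was listed there. An annotated antisense gene and another coding gene on the same strand also overlap ITIH4, so the size of its fall is the least certain of the 6.

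**Figure D3:**
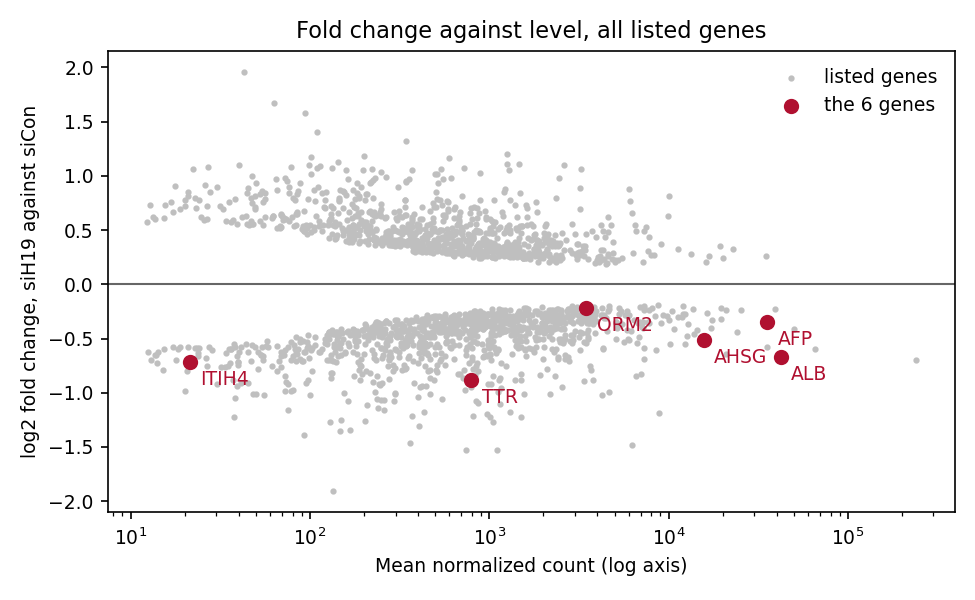
Log2 fold change against mean normalized count (log axis) for all 1998 listed genes in grey and the 6 genes in red. The empty band around 0 widens toward low counts, where only large changes are listed; ITIH4 lies at the low end with a mean of 21.4 and ALB and AFP near the high end at 42275 and 35544.

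The 6 genes allow 15 pairwise differences of fold change, and 7 of these were larger than 2 combined SEs. On this measure the falls of TTR exceeded those of AFP, AHSG and ORM2, the fall of ALB exceeded those of AFP and ORM2, and the falls of AHSG and ITIH4 exceeded that of ORM2. The gap between ITIH4 and ORM2, 2.17 combined SEs, became 1.84 with the counting error of ITIH4 in place of its SE, so this pair is not separated firmly. The largest gap was between TTR and ORM2, at -0.66 ± 0.11. The other 8 pairs, among them ALB and TTR (0.21 ± 0.11) and AFP and AHSG (0.16 ± 0.12), were within 2 combined SEs, which does not show that they fell alike. For AFP minus AHSG the 95% interval of the difference ran from -0.08 to 0.40. No p was computed, because how these genes vary together between libraries is not known from the table.

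Other plasma carriers were lower as well. Of 21 carriers and partners, 11 were listed, 6 of them outside the 6 genes described, and all 11 were lower, with a median of -0.51, against 55.3% lower among all listed genes and 76.3% among other highly expressed ones. The table holds called genes only, so the share of all measured genes that was listed is not known. The cortisol carrier SERPINA6 had the largest fall, -0.96 ± 0.10 in the authors' deposited table, from 1531 to 792.4 normalized counts. The haemoglobin scavenger haptoglobin, HP, stood at -0.70 ± 0.10 in the authors' deposited table. Of the 4 symbols of the albumin family, ALB and AFP were the 2 listed.

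The RNA of both negative and positive acute-phase proteins was lower. Of 6 negative ones 5 were listed and all 5 were lower, with a median of -0.67. Of 24 positive ones 10 were listed and all 10 were lower, with a median of -0.56. Both counts stand beside the 55.3% lower among all listed genes and the 76.3% among other highly expressed ones. The negative count includes ALB, TTR and AHSG, and 2 of its genes lie outside the 6 described. On the positive side 8 genes lie outside them. All 5 negative genes were also counted among the carriers, as were HP, CP and ORM2, so these counts are not separate evidence. Besides HP and ITIH4, the positive side was led by the fibrinogen chain FGA (-0.69 ± 0.08) and alpha-1-antitrypsin, SERPINA1 (-0.60 ± 0.08), in the authors' deposited table. No listed gene of either acute-phase list was higher in siH19.

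In the family of ITIH4, 3 of 4 listed genes were lower, ITIH4 among them, which is not far from the 55.3% of all listed genes. Without ITIH4 it was 2 of 3. ITIH3 was at -0.54 ± 0.12 and ITIH2, a highly expressed heavy chain, at -0.32 ± 0.07 in the authors' deposited table. ITIH5, which is expressed outside the liver too, was higher, at 0.62 ± 0.12 in the authors' deposited table, from 290.0 to 448.8 normalized counts. Among proteins related to AHSG, the kininogen KNG1 was lower, at -1.16 ± 0.20 in the authors' deposited table, from 104.7 to 46.9 normalized counts.

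Wider lists of adult and fetal liver genes were looked at too, with ALB and TTR in the adult list and AFP in the fetal list. Of 20 adult hepatocyte genes 12 were listed, of which 11 were lower (91.7%, against 55.3% of all listed genes), with a median of -0.52. Without ALB and TTR, 9 of 10 were lower, with a median of -0.5. The 1 that was higher, the urea cycle enzyme CPS1 at 0.61 ± 0.10 in the authors' deposited table, was picked out after its value was seen. G6PC, which releases glucose, led them at -1.91 ± 0.17, and the tyrosine-degrading enzyme TAT stood at -0.68 ± 0.18 in the authors' deposited table. Of 14 fetal and oncofetal genes 3 were listed and 2 were lower, with a median of -0.32. Besides AFP these were the RNA-binding proteins IGF2BP2 (-0.32 ± 0.11) and LIN28B, which was higher (0.26 ± 0.08), in the authors' deposited table. Without AFP, 1 of 2 listed fetal genes was lower, with a median of -0.03. With 3 listed fetal genes the lists were not compared further.

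Regulators of ALB and AFP moved in both directions. Of 24 listed by name 7 were in the table, 5 lower and 2 higher, with a median of -0.47; 71.4% lower is not far from the 55.3% of all listed genes. Among the higher ones was CTNNB1 (0.37 ± 0.09 in the authors' deposited table), named after its value was seen. The bile acid receptor NR1H4 stood at -1.31 ± 0.12, and CEBPA and ONECUT2, transcription factors of the liver, both at -0.69 in the authors' deposited table. HNF4A, a central hepatocyte factor, and the repressor NFIL3 were both at -0.47 in the authors' deposited table. For acute-phase signalling 7 of 11 genes were listed, 5 lower and 2 higher, again 71.4% against 55.3%. The 2 chains of the interleukin-6 receptor went opposite ways: IL6R was at -0.59 ± 0.09 and IL6ST, the signalling chain, at 0.88 ± 0.08 in the authors' deposited table. The other higher gene, named after its value was seen, was the glucocorticoid receptor NR3C1 (0.29 ± 0.08 in the authors' deposited table). The antagonist IL1RN (-0.90 ± 0.14) and the transcription factor CEBPD (-0.72 ± 0.18) were lower in the authors' deposited table. All 3 listed receptors for plasma proteins, of 12, were lower, a small count beside the 55.3% of all listed genes. In the authors' deposited table they were FCGRT, which recycles albumin (-0.63 ± 0.13), and the asialoglycoprotein receptor chains ASGR1 (-0.54 ± 0.11) and ASGR2 (-0.31 ± 0.08).

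**Figure D4:**
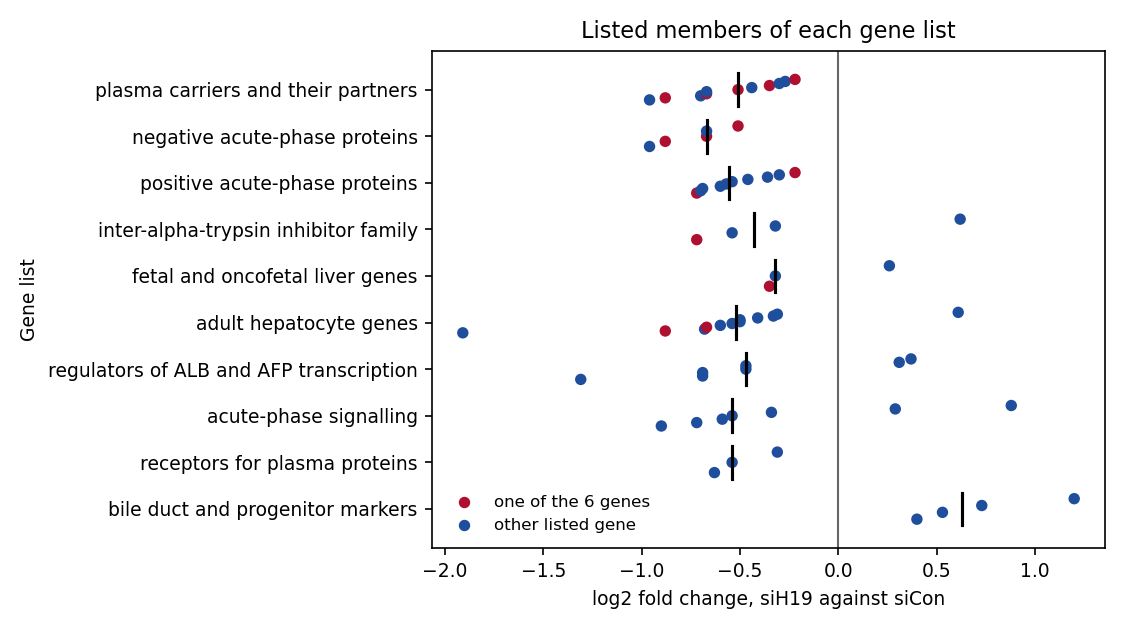
Log2 fold change of every listed gene in each gene list with at least 3 listed genes, with red points for the 6 genes described, blue points for others and a black bar at the list's median. The carriers and the negative and positive acute-phase proteins lie wholly left of 0, the acute-phase signalling genes lie on both sides, and the bile duct and progenitor markers lie wholly right.

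Markers of other cells moved beside these genes, though the cells were a single line. Of 10 bile duct and progenitor markers 4 were listed and all 4 were higher, against 893 of all 1998 listed genes. They were CD24 (1.20), SOX4 (0.73), SPP1 (0.53) and PROM1 (0.40) in the authors' deposited table. Their summed normalized counts were 8340 in siCon and 12919 in siH19. Listed markers of stellate cells (ACTA2, 1 of 9), endothelium (LYVE1, 1 of 8) and blood cells (CD68 and LYZ, 2 of 9) were lower. Their sums were 861.1, 104.7 and 26484 in siCon and 484.4, 52.7 and 16759 in siH19. Among all listed genes 55.3% were lower, and marker counts this small say little beside such shares. The part of these markers in the lower RNA of the plasma protein genes was not tested.

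Most of these genes lie in clusters of relatives. In GENCODE release 29 the starts of ALB and AFP on chromosome 4 are 34.0 kb apart, and of the 9 coding neighbours of ALB within 500 kb AFP was the only 1 listed. Near AHSG on chromosome 3, all 3 listed neighbours of 12 were lower, against 55.3% of all listed genes, and 3 genes say little about the region. In the authors' deposited table they were the AHSG relative KNG1, the sialyltransferase ST6GAL1 (-0.43 ± 0.08) and the lipid kinase DGKG (-0.42 ± 0.15). Near ITIH4, elsewhere on chromosome 3, 6 of 25 coding neighbours were listed, 3 lower and 3 higher, beside the same 55.3%. The lower ones in the authors' deposited table were ITIH3, the glycosyltransferase-like gene GLT8D1 (-0.49 ± 0.11) and the transketolase TKT (-0.36 ± 0.12). The higher ones in the authors' deposited table were the semaphorin SEMA3G (1.02 ± 0.12), the troponin TNNC1 (0.97 ± 0.17) and NT5DC2 (0.37 ± 0.11). Near ORM2 on chromosome 9 the collagen COL27A1 was listed and higher (0.29 ± 0.10 in the authors' deposited table), and near TTR no neighbour of 10 was listed.

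For each of the 6, the listed genes closest in fold change at a similar level were looked up. Likeness was the absolute difference in log2 fold change over the 2 groups, among genes with a mean count within 2-fold. For ALB these were SERPINA1 (difference 0.07) and the apolipoprotein APOA2 (0.09), and for AFP they were ITIH2 (0.03) and the ferritin light chain FTL (0.06). For AHSG they were the topoisomerase TOP2A (0.03) and the translation factor EIF4G2 (0.04). TTR was matched to the printed precision by the glutamate transporter SLC1A2 and the collagen crosslinker LOX, ORM2 by CHD1L and ALDH18A1, and ITIH4 by LEAP2 and LOC100129461. With 1 value per group many genes share a fold change, so a match says little about a single pair.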

How the data were processed

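RNA was measured in 3 siCon and 3 siH19 libraries of HepG2 cells. Per the labels' protocols, total RNA depleted of ribosomal RNA was made into stranded libraries and read as pairs of 76 cycles. The submitters' processing notes name STAR 2.5.0a, Cufflinks 2.2.1, DESeq2 1.0.0 and the build hg19. What each tool did, the annotation and strand use in counting are not given in the sources used here. Only 1 table, of genes called as changed, was deposited by the authors. Per the file headers it gives log2 counts per group, a log2 fold change and its SE, as deposited by the authors on a log2 scale. The authors' deposited mean count is not in whole reads and was treated as a normalized signal. The q-value deposited by the authors is an adjusted p-value and was at most 0.0498. Columns from samples outside the series numbered 0.

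Library totals were not given, so depth is unknown. No label states that libraries were separate cultures. The SEs and adjusted p-values may thus measure technical spread only. The table holds no values per library, so the authors' comparison was used without a further test per gene. Normalized counts were computed from the log2 values. Coding and transcript lengths were those of the longest principal transcript in GENCODE release 29, whose build differs from hg19, and promoters came from RefSeq. Of 1998 symbols 98.8% matched GENCODE. Counting functions were tested on simulated data. Python 3.11.15, pandas 2.3.3, Biopython 1.88 and matplotlib 3.10.9 were used.

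The 6 genes and 15 gene lists were chosen with earlier results of these data known. Genes named were the 6, every listed relative in the albumin, inter-alpha-trypsin and fetuin lists, up to 4 listed genes of largest change in other lists with ties kept, listed neighbours within 500 kb, and the 2 closest in fold change. Alternatives were the group values in place of the fold change, transcript length, stricter gene filters and wider windows. 1 listed gene of the regulator list is not reported here.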

Additional observations from a re-analysis of the deposited data

How the results depend on the processing

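No paired analysis was possible because the table holds 1 combined value per group, and for the same reason no library could be left out. The log2 fold changes of all 6 genes kept their direction when taken as the difference of the deposited group values, and 2 of them moved by 0.01. Over all listed genes the gap was at most 0.01, so this shows only that the deposited columns match. The ALB to AFP ratio rebuilt from mean count and fold change was 1.30 in siCon and 1.04 in siH19, which is likewise no independent check. Per transcript length it was 1.43 in siCon and 1.15 in siH19, because AFP's transcript is the longer one. Transcript in place of coding length moved levels per length by more than the SE of the gene's fold change, used as a yardstick since levels have none, in 10 of 12 cases. For gene lists, 37 of 39 alternatives kept the share of lower genes within its exact 95% interval. The exceptions were the fetal list at an adjusted p under 0.01, with 1 gene left, and the regulators changed at least 1.5-fold, with all 3 lower. The carriers, both acute-phase lists, the receptors and the bile duct markers each went wholly in a single direction. Any subset of such a list must give the same share, and the intervals of the small lists are wide. The count of kept shares therefore says little about robustness. Leaving the 6 genes out, and the background of genes with a mean count of at least 10000, were chosen after seeing the data, as was the counting error in place of the SE of ITIH4, which took its gap to ORM2 from 2.17 to 1.84 combined SEs. Within 1000 kb AHSG had 5 listed neighbours, all lower, where 55.3% of all listed genes were lower, and ORM2 had 2 listed neighbours. With mean counts within 4-fold, the closest genes were the same for TTR, ORM2 and ITIH4, and 1 of 2 for ALB and 0 of 2 for AFP and AHSG were shared. Library depth is unknown, and ITIH4 is the 1 gene of the 6 for which counting error at its level, with normalized counts taken as reads, exceeds the deposited SE.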
